A study of Mus musculus with 2 samples.

Results

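The 7 genes described here are those of mouse mitochondrial DNA that encode subunits of respiratory complex I: mt-Nd1, mt-Nd2, mt-Nd3, mt-Nd4l, mt-Nd4, mt-Nd5 and mt-Nd6. They were chosen by position, as listed cytosines of chrM (build mm9) that fall inside the 7 gene spans. These spans held 1455 of the 3297 cytosines listed on chrM (44.1%) and 27847 of its 59190 reads (47.0%), out of 13025343 cytosines and 176006227 reads in the whole table. The study mapped 5-hydroxymethylcytosine (5hmC) in E14, an established mouse embryonic stem cell line, at passage 12. There were 2 libraries of 1 group, labelled as replicates, with no treatment, mutant or unglucosylated control, and the deposited table holds a single count per cytosine for both together. The values below therefore have no replicate error and no test between samples, and the intervals given are 95% counting intervals (exact binomial for shares, exact Poisson for reads per kilobase). The libraries were amplified by PCR and carried no stated molecular identifiers, so reads can be copies of 1 molecule and the intervals cover counting error only.

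Complex I, or NADH:ubiquinone oxidoreductase, passes electrons from NADH to ubiquinone and pumps protons across the inner mitochondrial membrane. The 7 proteins encoded in mitochondrial DNA are the hydrophobic core of its membrane arm, and the other subunits are encoded in the nucleus. ND2, ND4 and ND5 are the antiporter-like subunits of that arm, ND1 lies at its junction with the peripheral arm near the ubiquinone site, and ND3, ND4L and ND6 are small subunits between them. The genes have no introns, and mt-Nd6 is the one whose coding sequence lies on the minus strand of the reference. 5hmC is made from 5-methylcytosine by TET enzymes, which act mainly on CG cytosines in nuclear DNA. The assay glucosylated 5hmC, cut the DNA with AbaSI, an endonuclease that recognises the glucosylated base and cuts at a distance from it, and sequenced the cut ends. A listed cytosine is thus one to which the authors assigned cut ends, and not a measured fraction of modified molecules.

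Each of the 10 cytosines with the most reads in these genes had a listed cytosine on the other strand 21 or 22 bp away, in most but not all cases with a similar count. The stretches between such partners are shown for these 10 sites and for the highest CG and CH site of each gene, where they had a partner. The last pair of stretches, chosen after their values were seen, hold the partners 23 bp apart with equal counts and the most reads. Each is written 5′ to 3′ on the plus strand of mm9 with 5 bases on either side. The capital C is the plus-strand site and the capital G lies opposite the minus-strand cytosine. The letters were spelled out from the dinucleotides that the deposited table gives for listed cytosines on both strands, and n is a base that no listed cytosine spells.
mt-Nd5, chrM:13379-13411: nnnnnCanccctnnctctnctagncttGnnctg
mt-Nd5, chrM:12903-12935: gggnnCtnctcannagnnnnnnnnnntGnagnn
mt-Nd1, chrM:2842-2873: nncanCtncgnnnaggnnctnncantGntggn
mt-Nd1, chrM:3507-3539: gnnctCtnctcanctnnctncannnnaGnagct
mt-Nd1, chrM:2790-2822: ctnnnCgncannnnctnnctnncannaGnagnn
mt-Nd2, chrM:3938-3970: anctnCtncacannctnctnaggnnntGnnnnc
mt-Nd2, chrM:4130-4162: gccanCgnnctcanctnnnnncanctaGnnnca
mt-Nd4, chrM:11028-11060: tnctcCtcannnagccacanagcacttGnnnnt
mt-Nd5, chrM:12193-12224: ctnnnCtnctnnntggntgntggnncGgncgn
mt-Nd4, chrM:11126-11159: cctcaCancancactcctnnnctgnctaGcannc
mt-Nd5, chrM:12440-12473: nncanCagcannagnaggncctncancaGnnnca
In 3 of these stretches 1 partner was a CG cytosine, and there the counts were unlike: 109 and 12 reads at 2795 and 2817, 41 and 6 at 4135 and 4157, and 7 and 79 at 12198 and 12219. All other partners shown were CA or CT cytosines. The site at 12198 also had an opposite-strand site 22 bp to its right, with 7 reads at each. The last pair of stretches had 50 reads at each partner (11131 and 11154) and 48 at each (12445 and 12468). On chrM, 915 bases were spelled by more than 1 listed cytosine and 0 of them were given conflicting letters, which checks the strand and position columns of the table against each other.

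Listing was not even over the 7 genes. The longest run of chrM without a listed cytosine spanned positions 6451 to 10984, or 4534 bp, while the next longest anywhere between listed sites was 161 bp. mt-Nd3 (9459 to 9806, 348 bp) and mt-Nd4l (9877 to 10173, 297 bp) lay wholly inside this run and had 0 listed sites. The first 818 of the 1378 bp of mt-Nd4 (10167 to 11544) lay inside it as well, so 59.4% of that gene was empty. In all, 1456 of the 6340 bp of the 7 genes fell into the run. Its ends, at 6451 and 10984, do not coincide with a gene boundary of the 7. Why no cytosine was listed there was not tested, and the lack of a line in the table is no measurement of 0, so the values of mt-Nd3 and mt-Nd4l are missing and not low.

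The remaining 5 genes carried sites along their whole listed length. mt-Nd5 (11742 to 13565, 1824 bp) had 548 sites with 11264 reads, the most of the set. mt-Nd2 (3914 to 4951, 1038 bp) had 297 sites with 5208 reads and mt-Nd1 (2751 to 3707, 957 bp) had 296 with 5538. The listed part of mt-Nd4 had 173 sites with 3666 reads. The smallest gene with sites, mt-Nd6 (13552 to 14070, 519 bp), had 144 with 2232 reads. The 14 bp shared by mt-Nd5 and mt-Nd6 (13552 to 13565) held 3 sites with 61 reads, which are counted for each gene but once in sums over the 7. The 7 bp shared by mt-Nd4l and mt-Nd4 (10167 to 10173) lay in the empty run.

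Per length, the place of mt-Nd4 in the order depended on the length used. Over the whole gene it had 2660 reads per kb (2575 to 2748), the lowest of the 5. Over the 560 bp outside the empty run it had 6546 (6336 to 6762), the highest. Next came mt-Nd5 with 6175 reads per kb (6062 to 6291), mt-Nd1 with 5787 (5635 to 5941), mt-Nd2 with 5017 (4882 to 5155) and mt-Nd6 with 4301 (4124 to 4483). No 2 neighbours in this order had overlapping counting intervals, but the spread between the libraries is unknown. Sites were spaced more evenly than reads, with 277 (mt-Nd6) to 309 (mt-Nd1) listed sites per kb over the listed lengths. The order of the genes thus also appeared in the reads per site, with means of 21.2 in mt-Nd4, 20.6 in mt-Nd5, 18.7 in mt-Nd1, 17.5 in mt-Nd2 and 15.5 in mt-Nd6. Median reads per site ran from 14.5 in mt-Nd6 to 19 in mt-Nd4, and the middle ranges of all 5 genes overlapped (9 to 19.25 in mt-Nd6, 13 to 27 in mt-Nd4). The rest of chrM outside the empty run and between the first and last listed sites had 4572 reads per kb (4522 to 4623) and 17.0 reads per site. The listed parts of the 7 genes had 5702 (5635 to 5769) and 19.1.

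**Figure D1:**
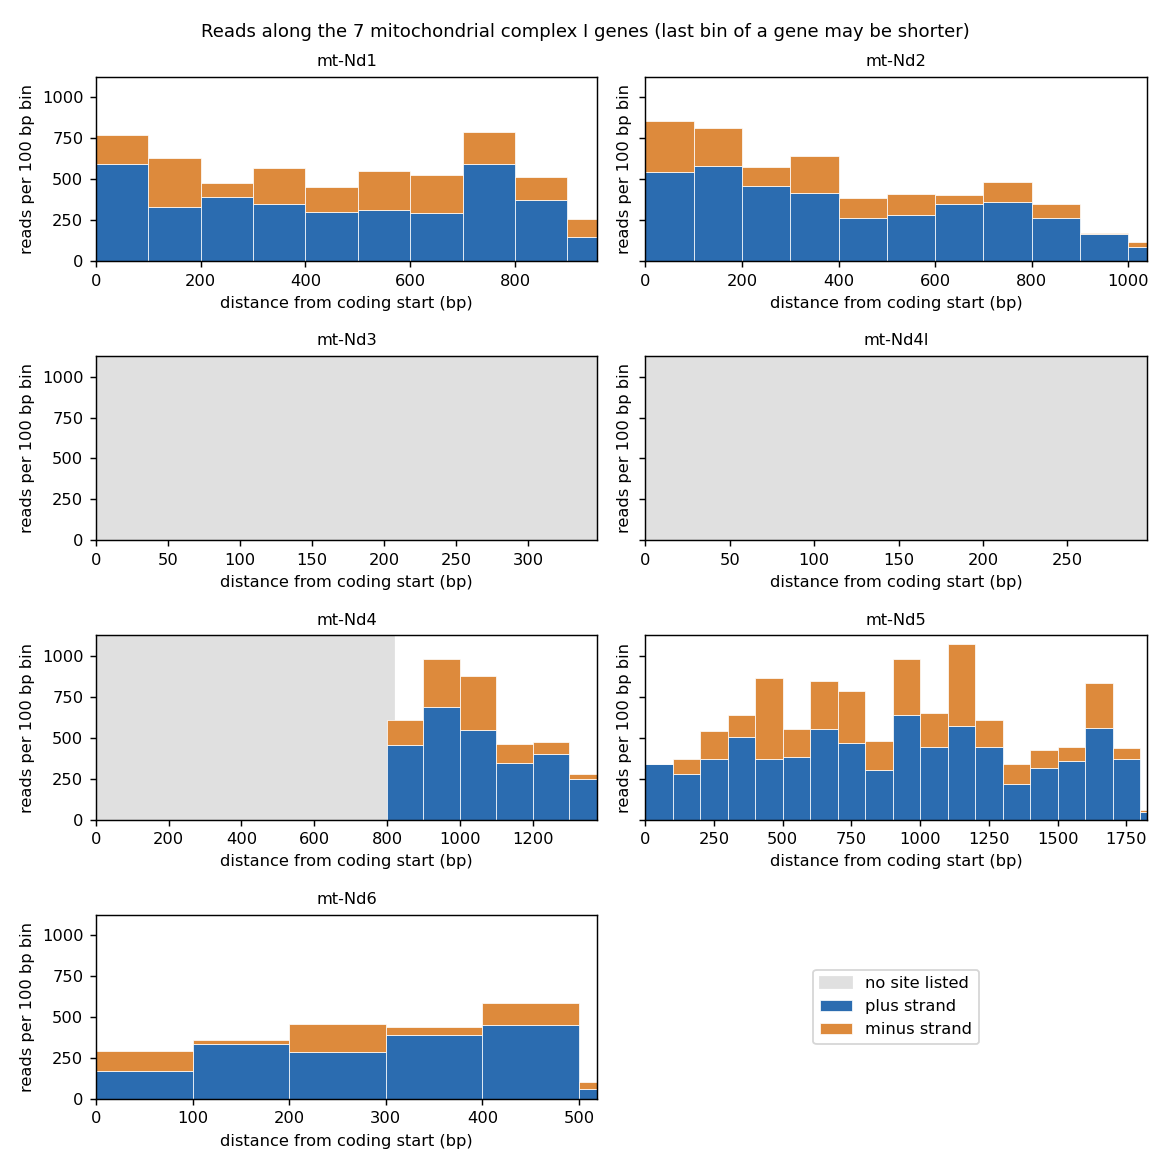
Reads in bins of 100 bp (y axis) against the distance from the coding start of each gene in bp (x axis), with plus-strand and minus-strand reads stacked and the stretch without a listed site in grey; bins at gene ends can be shorter and then hold fewer reads. mt-Nd3 and mt-Nd4l are empty, mt-Nd4 has reads only after its first 818 bp, and mt-Nd2 goes from 855 reads in its first bin to 173 in its last full one.

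Reads varied along each gene, with a ratio of the highest to the lowest full bin of 1.75 in mt-Nd1, 2.02 in mt-Nd6, 2.13 in mt-Nd4, 3.18 in mt-Nd5 and 4.94 in mt-Nd2. Over the 46 full bins of 100 bp outside the empty run, the median was 534.5 reads, the lowest 173 and the highest 1070. mt-Nd2 had the widest spread, from 855 reads on 32 sites in its first 100 bp (3914 to 4013) to 173 reads on 17 sites at 901 to 1000 bp from its start (4814 to 4913). Most of its longest stretch without a site, 34 bp from 4811 to 4844, lies in that lowest bin. The highest bin of all was 1101 to 1200 bp into mt-Nd5 (12842 to 12941) with 1070 reads on 31 sites, and the lowest of that gene, 1301 to 1400 bp in, had 337 on 25. In mt-Nd4 the bins ran from 459 to 977 reads, in mt-Nd1 from 452 to 791 and in mt-Nd6 from 291 in its first 100 bp to 587 near its end. Outside the empty run, the longest stretch without a site was 18 bp in mt-Nd1, mt-Nd4 and mt-Nd6 and 15 bp in mt-Nd5.

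The sites were mostly outside CG. CA, CT and CC cytosines, together CH, made up 1308 of the 1455 sites or 89.9% (88.2 to 91.4) and 87.4% of the reads. On the 19 autosomes the CH share of sites was 4.21% to 8.18%, and in the rest of chrM it was 87.1% (85.5 to 88.6), an interval that overlaps that of the 7 genes. By gene the CH share ran from 85.5% in mt-Nd1 (80.9 to 89.3) to 94.6% in mt-Nd2 (91.4 to 96.9). mt-Nd4 had 89.6%, mt-Nd5 89.1% and mt-Nd6 91.7%, and their intervals overlapped each other and those of both other genes. The intervals of mt-Nd1 and mt-Nd2 did not overlap. mt-Nd1 had 43 CG sites in 957 bp, whereas mt-Nd2 had 16 in 1038 bp. How often each context occurs in the genes was not analysed here, and the shares depend on it.

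Over both strands, mean reads were moderately higher at CG than at CH sites in each of the 5 genes. Over the set the means were 23.9 reads per CG site and 18.6 per CH site, a ratio of 1.28. The ratio was 1.43 in mt-Nd2, 1.30 in mt-Nd5, 1.23 in mt-Nd6, 1.22 in mt-Nd1 and 1.17 in mt-Nd4. It was 1.21 in the rest of chrM. On the autosomes it ranged from 1.53 to 2.24 without sites above 168 reads, and from 0.533 to 2.22 with all sites kept. By context, the means in the 7 genes were 23.9 at CG, 21.4 at CA, 19.8 at CT and 10.7 at CC. The medians were 21, 19, 17 and 9. The CC sites thus lowered the CH mean, and CG stood closer to CA than to CH as a whole. The difference between CG and CH in the 7 genes came with a wide spread over sites, since the SD was 14.5 reads for CG and 15.5 for CA.

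Among CH sites, CC stood apart. CA made up 40.6% of the CH sites (531 sites, mean 21.4 reads), CT 39.1% (512 sites, mean 19.8) and CC 20.3% (265 sites, mean 10.7). The low reads of CC were most marked on the plus strand, where 201 CC sites had a median of 7 reads against 19 for CA and 17 for CT. On the minus strand the medians were 15.5 for CC, 19.5 for CA and 18 for CT. By gene, the mean at plus-strand CC sites was 7.42 in mt-Nd1, 7.90 in mt-Nd2, 9.03 in mt-Nd6, 9.81 in mt-Nd5 and 11.0 in mt-Nd4, in every case below the plus-strand means of CA and CT of the same gene, which lay between 15.1 and 22.5. Of the plus-strand CC sites, 164 (81.6%, 75.5 to 86.7) had the following cytosine listed too. The first cytosine had fewer reads than the second in 133 of these 164 steps, with medians of 8 and 17 reads. On the minus strand 43 of 64 CC sites (67.2%, 54.3 to 78.4) had the following cytosine listed. There the first had fewer reads in 24 of 43 steps and more in 18. In the rest of chrM the first had fewer in 117 of 155 plus-strand steps, but in 33 of 76 minus-strand steps, where it had more in 40 and both medians were 12. Reads of neighbouring cytosines depend on how the authors assigned a cut end to a base, and that rule was not stated in any label or file header.

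**Figure D2:**
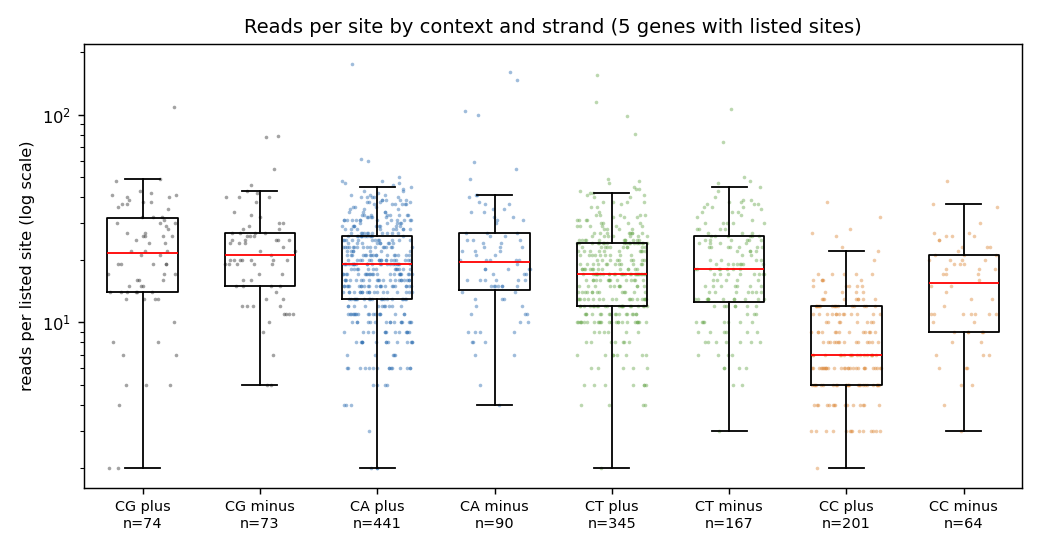
Reads per listed cytosine (y axis, log scale) by context and strand over the 5 genes with sites; each point is a site, boxes give the quartiles with the median in red, whiskers reach to the last site within 1.5 times the box height, and n is the number of sites. Plus-strand CC sites have a median of 7 reads, below the other 7 classes, whose medians lie between 15.5 and 21.5.

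More sites were listed on the plus strand than on the minus strand in all 5 genes, whichever strand carried the coding sequence. Over the set, 1061 sites or 72.9% (70.6 to 75.2) and 69.4% of the reads were on the plus strand. The share of sites was 68.9% in mt-Nd1 (63.3 to 74.1), 71.2% in mt-Nd5 (67.2 to 74.9), 75.1% in mt-Nd4 (68.0 to 81.4), 75.4% in mt-Nd2 (70.1 to 80.2) and 79.9% in mt-Nd6 (72.4 to 86.1). In mt-Nd6 the plus strand is opposite to the coding sequence, so the side rich in sites was the coding-sequence strand in 4 genes and the opposite strand in mt-Nd6. The rest of chrM had 58.8% of its sites on the plus strand (56.6 to 61.1), an interval that does not reach that of the 7 genes, and the autosomes lay between 49.9% and 50.1%. How many cytosines each strand holds was not counted here. These shares and the counts by context and strand below depend on it.

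The excess lay in CH sites. The plus strand held 987 CH sites and the minus strand 321, but CG sites numbered 74 and 73. CA was the most uneven context, with 441 plus-strand and 90 minus-strand sites, followed by CC with 201 and 64 and CT with 345 and 167. mt-Nd6 gave the extreme case, with 52 plus-strand and 5 minus-strand CA sites. Reads per site did not follow the number of sites, for the mean was 18.2 on the plus and 21.6 on the minus strand, and it was higher on the minus strand in all 5 genes.

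The letters spelled by the table show a few cytosines that were not listed. They covered 51.0% of the listed 4884 bp. Among spelled bases, 1101 were plus-strand cytosines and 419 were minus-strand cytosines. Most of them are the listed sites themselves, so these numbers do not measure how many cytosines each strand holds. Of the spelled cytosines, 96.4% (95.1 to 97.4) on the plus strand and 94.0% (91.3 to 96.1) on the minus strand were themselves listed, and the intervals overlap. Both are upper limits, because a cytosine that is unlisted and not next to a listed one is not spelled. For cytosines that follow a listed CC cytosine the shares listed were lower, 81.6% on the plus and 67.2% on the minus strand.

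**Figure D3:**
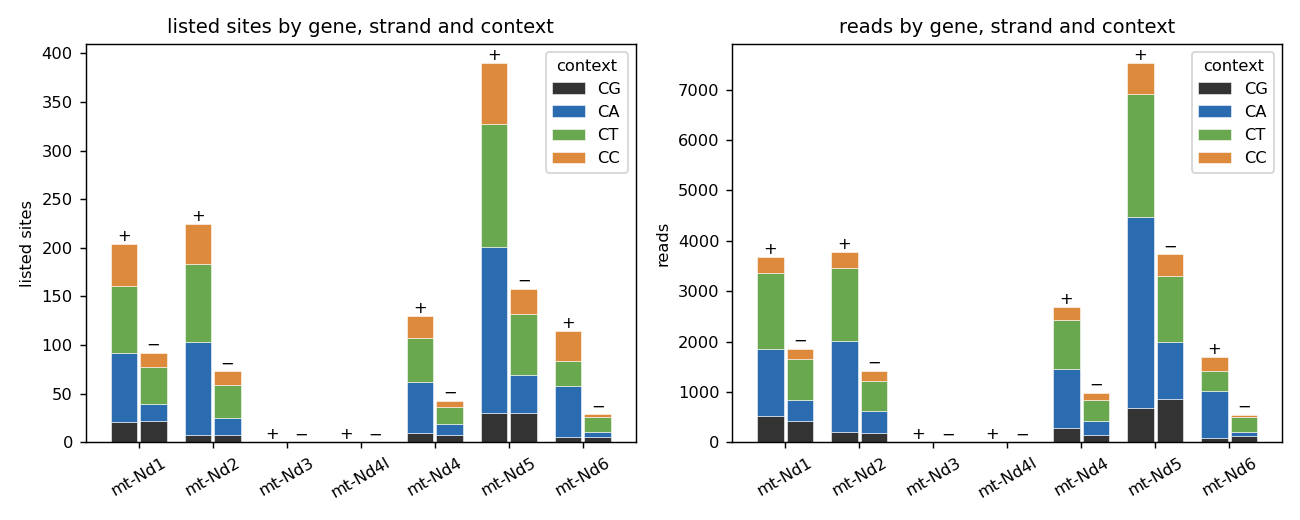
Listed sites (left) and reads (right) by gene on the x axis, with bars for the plus (+) and minus (−) strands stacked by context. The plus-strand bar is the taller in each of the 5 genes with sites, from 115 against 29 sites in mt-Nd6 to 390 against 158 in mt-Nd5. The CG parts of both bars are alike in sites, as each CG has a cytosine on both strands.

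Codon positions, which the choice of genes did not use, differed by strand. They were counted from the start of each coding sequence. In the 4 genes coded on the plus strand that had sites, coding-sequence strand sites were spread over positions 1, 2 and 3 with 30.8%, 32.8% and 36.4% of 948 sites. Sites on their opposite strand, which lie at guanines of the coding sequence, were at positions 1, 2 and 3 in 55.5% (50.2 to 60.6), 32.8% (28.0 to 37.9) and 11.7% (8.63 to 15.5) of 366 cases. The share at the third position was low in each of the 4 genes, at 12.0% in mt-Nd1, 8.22% in mt-Nd2, 9.30% in mt-Nd4 and 13.9% in mt-Nd5. As background, these mitochondrial genes use few codons that end in G. mt-Nd6 had another pattern. Of its 29 coding-sequence strand sites, 20 were at position 2 and 2 at position 3, and of its 115 opposite-strand sites 56, 27 and 32 were at positions 1, 2 and 3. Mean reads per site on the opposite strand of the 4 genes were 22.9, 20.3 and 21.3 at positions 1, 2 and 3, so reads per site varied less than the number of sites.

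**Figure D4:**
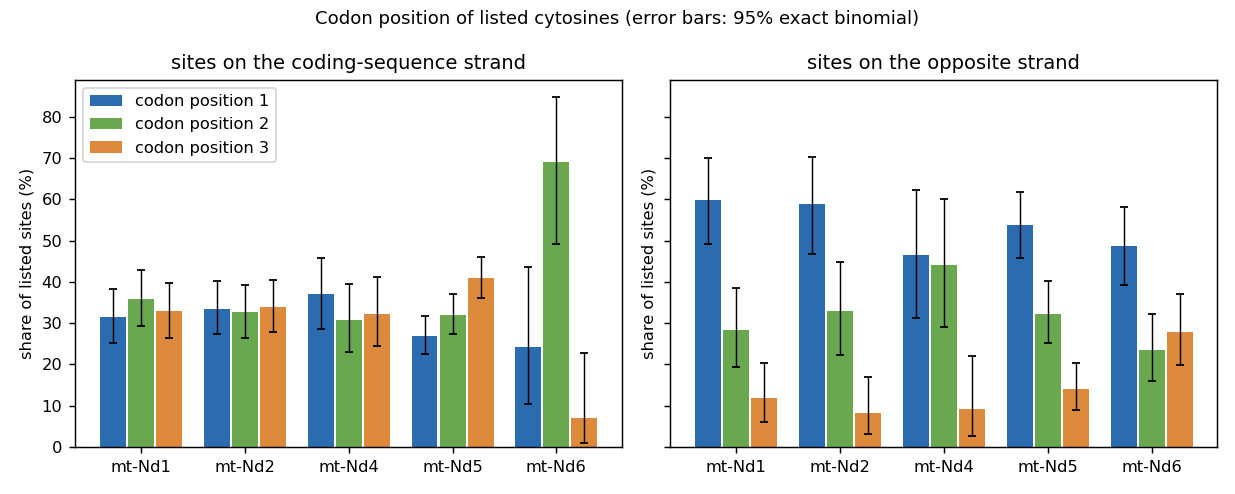
Share of listed sites (%, y axis) at codon positions 1, 2 and 3 in the 5 genes with sites, for sites on the coding-sequence strand (left) and on the opposite strand (right); error bars are 95% exact binomial intervals over sites. Opposite-strand sites of mt-Nd1, mt-Nd2, mt-Nd4 and mt-Nd5 are at position 3 in 8.22% to 13.9% of cases, and 20 of the 29 coding-sequence strand sites of mt-Nd6 are at position 2.

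CG dyads, in which both strands carry a cytosine of the same CG, were mostly listed in full. Of 77 dyads with a listed site, 70 (90.9%, 82.2 to 96.3) were listed on both strands, 4 on the plus strand alone and 3 on the minus strand alone. All 8 dyads of mt-Nd2 and all 6 of mt-Nd6 were listed on both strands, as were 29 of 31 in mt-Nd5, 20 of 23 in mt-Nd1 and 8 of 10 in mt-Nd4. In the rest of chrM the share was 85.2% (77.8 to 90.8), an overlapping interval. The shares of spelled cytosines of any context, 96.4% and 94.0%, are upper limits made up mostly of listed sites, so they cannot be set against the dyad share. After a listed CC cytosine, the following cytosine was listed in 81.6% (75.5 to 86.7) of plus-strand cases. On the minus strand it was 67.2% (54.3 to 78.4). These steps need the first cytosine listed, whereas a dyad counts if either is. Whether the dyad share is particular to CG was not tested. The strands of a dyad had unlike counts. The plus strand was the higher in 33 dyads and the minus strand in 34, and counts differed by more than 3-fold in 13 of the 70 (18.6%). Spearman's rho between the strands was -0.05 over the 70 dyads and 0.37 over the 109 of the rest of chrM. These are descriptions over sites of 1 pooled table, and dyads are not independent replicates.

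The dyad with the most reads lay near the start of mt-Nd1, at 2795 and 2796, with 109 plus-strand and 40 minus-strand reads. In mt-Nd5 it was at 12395 and 12396 with 30 and 78 reads, so the strand order was the reverse. mt-Nd4 had 48 and 29 at 11117 and 11118, mt-Nd2 had 41 and 33 at 4135 and 4136, and mt-Nd6 had 21 and 32 at 13645 and 13646. The highest single CG sites were the plus-strand members of these dyads in mt-Nd1, mt-Nd2 and mt-Nd4 and the minus-strand one in mt-Nd6. In mt-Nd5 it was the minus-strand cytosine at 12219 with 79 reads.

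Of the 10 sites with the most reads, 9 were CH. They held 1272 reads, or 4.57% of those in the 7 genes, with between 99 and 175 reads each, and the eleventh had 81. In mt-Nd5 the plus-strand CA at 13384 had 175 reads and the minus-strand CA at 13406, 22 bp to the right, had 161. The plus-strand CT at 12908 in the same gene had 155 and the minus-strand CA at 12930 had 147. In mt-Nd1 the plus-strand CT at 2847 had 115 reads and the minus-strand CA 21 bp away at 2868 had 100. Near the start of mt-Nd2 the plus-strand CT at 3943 had 99 reads and the minus-strand CA 22 bp away at 3965 had 104. The minus-strand CT at 3534 in mt-Nd1 had 107 reads and its plus-strand counterpart at 3512 had 81. The exception was the CG at 2795, whose opposite-strand site at 2817 had 12 reads. Thus all 10 had a listed site on the other strand 21 to 25 bp towards their 3′ side, and for 8 of them that site was itself among the 10. Over all 1455 sites, 633 (43.5%) had such a site, 33.5% of plus-strand and 70.6% of minus-strand sites. In mt-Nd4 the highest CH site, the minus-strand CA at 11055 with 59 reads, faced a plus-strand CT at 11033 with 48. The highest in mt-Nd6, the plus-strand CA at 13875 with 44 reads, had none at that distance.

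The spacing was then examined over all listed sites of the 7 genes. Plus-strand sites were matched with minus-strand sites at each distance from 40 bp to the left to 40 bp to the right, whatever their class. At 23 bp to the right, 46 of 84 pairs (54.8%) had exactly equal counts. At 22 bp it was 9 of 94 (9.57%), and at 24 bp 5 of 84 (5.95%). Over 72 other distances, leaving out 1 bp and 20 to 26 bp, the share ran from 0% to 8.45% with a median of 3.30%. Spearman's rho was 0.47 at 22 bp, 0.38 at 23 bp and 0.39 at 24 bp, against -0.17 to 0.34 at those other distances, whose numbers of pairs ran from 68 to 106. In the rest of chrM 62 of 102 pairs at 23 bp (60.8%) were equal, with a rho of 0.66. All pairs share the same 2 libraries and neighbouring stretches of DNA, and no test is given.

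The class codes of the table went with this spacing in full at 23 bp and in part at other distances, and may have been assigned from it. Of the 1455 sites, 958 were of the class 1CH, 350 of 2CH, 84 of 1CG, 62 of CGCH and 1 of 2CG. Neither the labels nor the table say what the codes stand for. Of the 173 plus-strand 2CH sites, 150 (86.7%, 80.7 to 91.4) had a minus-strand 2CH site 21 to 25 bp to the right. Among plus-strand 2CH sites, 84 had a 2CH partner at 23 bp, 47 at 22 bp, 29 at 24 bp, 21 at 21 bp and 13 at 25 bp, and a site can have several. The 84 at 23 bp, 46 of them with equal counts, are the same 84 pairs as in the match by distance alone. They are thus no second observation. In the rest of chrM the 102 pairs at 23 bp were 99 of 2CH and 3 of 2CG. At 22 bp, by contrast, 47 of the 94 pairs in the 7 genes were 2CH on both strands. If the codes were assigned from the spacing, which was not tested, the share of 2CH sites with a partner was set beforehand. Counts were equal in 54 of all 194 pairs. Mean reads were 20.8 at 2CH and 17.8 at 1CH sites. If both cytosines of an equal pair stand for the same reads, the totals count those reads at each.

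**Figure D5:**
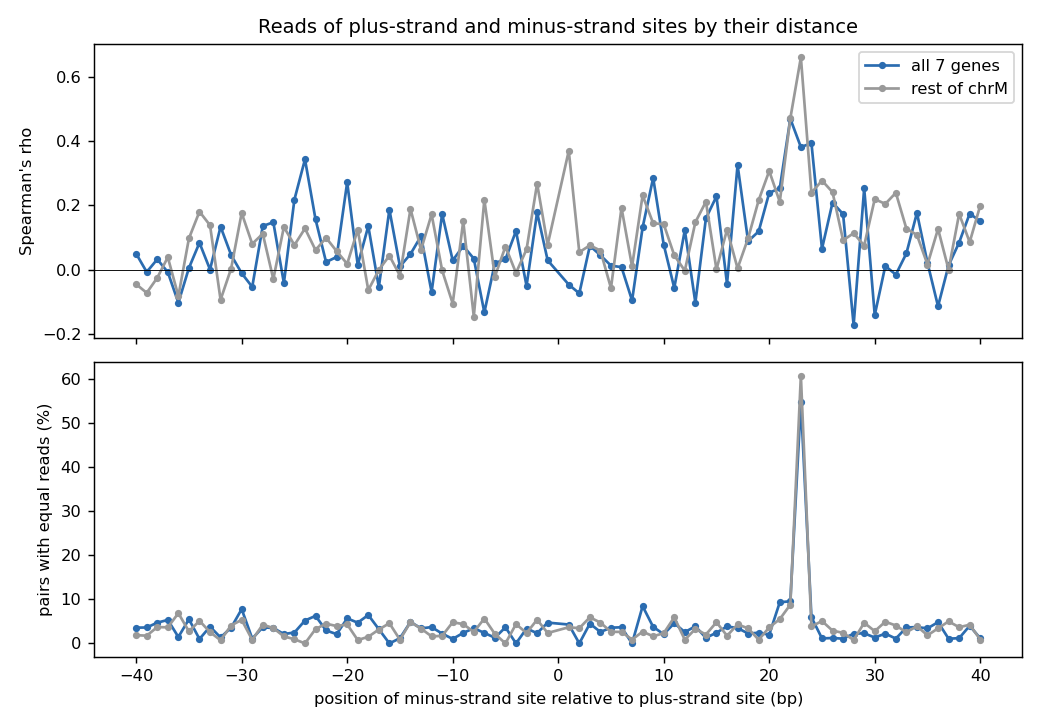
Spearman's rho between reads of plus-strand and minus-strand sites (upper) and share of pairs with exactly equal reads in % (lower) against the position of the minus-strand site relative to the plus-strand site in bp, for the 7 genes and for the rest of chrM. The share of equal pairs has a single peak at 23 bp, 54.8% in the 7 genes and 60.8% in the rest of chrM, and the rho at 22 bp is 0.47 in both.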

How the data were processed

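Genomic DNA of 2 E14 libraries was measured. The submitters' processing notes name CASAVA 1.8.2, Bowtie and build mm9. Not given in the sources used are the aligner's version, filters, the treatment of PCR copies, the rule assigning reads to cytosines and how the libraries were joined. Values are whole-number read counts per cytosine, deposited by the authors in 1 column without scaling, with a lowest count of 2.

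Column 2 plus 1 was taken as the 1-based position. The spans of the 7 genes came with the choice of members. Their starts and ends were compared, by symbol, with the RefSeq table of another assembly (GRCm38.p6) and were the same in 7 of 7. No genome sequence was used. Sites named are the 10 with the most reads, the highest CG and CH site and dyad of each gene, and the highest and lowest 100 bp bins; 2 equal pairs at 23 bp were added after their values were seen. Members and lists were chosen with earlier results of these data known. Shares have exact Clopper-Pearson and reads per kb exact Poisson intervals (95%). Functions were tested on simulated sites. Alternatives were minimum counts of 5 and 10 reads, sites above 168 reads left out, 2CG and 2CH sites weighted by 0.5, overlapping bases left out and, chosen after seeing the data, gene length without the empty run. Python 3.11.15, numpy 2.4.6, pandas 2.3.3, scipy 1.17.1 and matplotlib 3.10.9 were used.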

Additional observations from a re-analysis of the deposited data

How the results depend on the processing

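For the results other than mt-Nd3 and mt-Nd4l, which have no listed site for an alternative to act on, 59 values were recomputed. Of these, 11 were identical to the reported value, 35 differed but remained inside the counting interval (shares and reads per kb) or within 1.5 times (other values), and 13 moved. With at least 10 reads per site, reads per kb were 5365 in mt-Nd1, 4607 in mt-Nd2, 2547 in mt-Nd4, 5837 in mt-Nd5 and 3829 in mt-Nd6, and dyads on both strands made up 75.0%; fewer sites enter by construction. With 2CG and 2CH sites weighted by 0.5, reads per kb were 4900 in mt-Nd1, 4394 in mt-Nd2, 2254 in mt-Nd4, 5411 in mt-Nd5 and 3909 in mt-Nd6, and 76.1% of sites were on the plus strand, as 2CH sites numbered 173 on the plus and 177 on the minus strand. Over its length outside the empty run, an alternative chosen after seeing the data, mt-Nd4 had 6546 reads per kb in place of 2660. The CH share stayed between 88.6% and 90.0% and the ratio of CG to CH reads between 1.18 and 1.31. Weighting was not applied to the dyads, and no length outside the run is left for mt-Nd3 and mt-Nd4l. No paired analysis was possible because the table pools both libraries in 1 column, and for the same reason no value could be computed without a replicate. Differences smaller than the unknown spread between libraries cannot be seen.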
